A study of Mus musculus with 6 samples.

Results

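The hypothalamus of mice carrying floxed alleles of Trsp together with Ins1-Cre (Trsp-Ins1KO, 2 arrays) was compared with that of mice carrying the floxed alleles alone (TrspFF, 2 arrays), over all measured genes. These are 4 of the 6 arrays of the series. The other 2 hold Trsp-RIPKO, the same floxed alleles with RIP-Cre, and serve here as a second knockout on the same slide. All mice were C57BL/6J males aged 16 weeks, and all 3 genotypes carry the floxed alleles. No group held Cre without the floxed alleles, so an effect of a Cre transgene cannot be told apart from loss of Trsp. Both drivers rest on insulin promoters: Ins1-Cre uses that of the mouse Ins1 gene, and RIP-Cre uses a rat insulin promoter that is also active in part of the hypothalamus. The labels number the arrays of a genotype without saying whether they came from separate animals, so the p-values reflect the spread among arrays alone, part or all of which may be technical.

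Trsp encodes the transfer RNA that inserts selenocysteine, the amino acid through which selenoproteins carry selenium. Many selenoproteins are enzymes that remove peroxides or reduce oxidised proteins, among them the glutathione peroxidases and thioredoxin reductases, and cells without Trsp cannot make them. In the hypothalamus, neurons that sense leptin and insulin set food intake and energy use, and the study's question is what oxidative stress there does to the action of these hormones. Loss of the transfer RNA acts on translation, so the transcript of a selenoprotein need not follow the protein.

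Group names follow the labels of the scanner files. In the deposited value table the columns labelled Trsp-Ins1KO match the arrays labelled Trsp-RIPKO (r = 0.999998 or above across probes centred on their medians) and the reverse, so under the names of that table the values below would belong to RIP-Cre. No probe was named Trsp, so the deletion was not checked and the data do not settle which naming is right. A level is the log2 of a probe's processed signal, less the 75th percentile of its array, and a pair of levels is always given as replicate 1 and then replicate 2. A difference is the mean level of Trsp-Ins1KO minus that of TrspFF. Neuropeptide genes that mark hypothalamic neurons (Pmch, Hcrt, Oxt, Avp, Pomc, Agrp) were well above background on all 4 arrays, and 26 of 28 hypothalamic transcription factors passed the filter; Otp and Bsx did not.

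Both TrspFF arrays were on 1 slide and scan and all knockout arrays on another, so slide and genotype cannot be told apart in any difference from TrspFF. The 75th percentile of signal ranged from 1391 to 2136 by array. Signal stood well above background for 68.9% to 72.0% of probes, and 0 probes were saturated. Replicate arrays differed from each other with an SD of 0.51 (TrspFF), 0.44 (Trsp-Ins1KO) and 0.41 (Trsp-RIPKO) over all genes. The Trsp-Ins1KO arrays differed from each other: on replicate 2, 141 genes were lower and 56 higher by over 2 log2 units than on replicate 1. The lower ones included the choroid plexus genes Ttr and Kcne2 and the cortical gene Neurod6, where replicate 2 lay below every other array. Among the higher ones was Rbbp9, where replicate 1 lay below every other array. The counts therefore do not show which replicate stood apart. The TrspFF arrays also differed by over 2 log2 units in 302 genes. Of 154 genes that separated the knockouts by over 2 log2 units, with replicates of each knockout within 1, TrspFF replicate 1 was nearer Trsp-Ins1KO in 132 and TrspFF replicate 2 was nearer Trsp-RIPKO in 142.

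Examples of genes split in this way, not all of them among the 154, were chosen after their values were seen. The hydrolase gene Abhd17a had levels of -7.23 and 1.47 in TrspFF, -6.60 and -8.20 in Trsp-Ins1KO, and 1.45 and 1.43 in Trsp-RIPKO. The retinol saturase gene Retsat had 1.31 and -1.26 in TrspFF, 1.23 and 1.44 in Trsp-Ins1KO, and -1.23 and -1.04 in Trsp-RIPKO. The lymphoid chemokine gene Ccl21a was at -1.21 and 2.38 in TrspFF, -3.18 and -1.80 in Trsp-Ins1KO, and 2.83 and 3.07 in Trsp-RIPKO. In each of these genes 1 TrspFF array lay with each knockout. Such genes have a wide spread within TrspFF. Of the 154, 15 passed the test against it, while 1.82% of all tested genes did. The 154 were chosen by their knockout levels, which enter the same test, so this count is no result about them.

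Against TrspFF, 55 genes rose and 361 fell in Trsp-Ins1KO (limma over all 6 arrays, Benjamini-Hochberg adjusted p under 0.05, 1.82% of 22862 tested genes; 0.241% higher and 1.58% lower). The rises were few and mixed in kind, with no more than 1 member of any gene list described below. In bulk tissue, more or fewer cells of a type and more or less RNA per cell cannot be told apart. In all, 5937 of the 22862 tested genes had an unadjusted limma p under 0.05, which is termed nominal below. The nominal counts of the gene lists are to be read against that share. Their counts of rises and falls are to be read against 0.241% and 1.58%. In all 416 genes both Trsp-Ins1KO arrays lay on the same side of both TrspFF arrays. This nearly follows from the test that chose them and is no separate support. Over all tested genes it held for 31.7% above and 26.4% below. The rises had a median difference of 0.94 and the falls of -1.10. Set beside these, the same genes in Trsp-RIPKO, which share the TrspFF arrays, had median differences of 0.33 for the rises and -1.04 for the falls. Of the called genes 36.3% carried a usual gene symbol, against 66.0% of the tested genes, the rest being clones and predicted transcripts. The calls depended on single arrays. In limma 0 genes passed without TrspFF replicate 2 (4312 nominal), without either Trsp-RIPKO array (4856 nominal) or without Trsp-Ins1KO replicate 1 (4588 nominal), while 183 rises and 328 falls passed without TrspFF replicate 1. Without Trsp-Ins1KO replicate 2 the call was Rbbp9 alone, a hydrolase gene with levels of -8.19 and 0.01 in Trsp-Ins1KO against 0.84 and 0.92 in TrspFF, so it was low on replicate 1. Falls made up 86.8% of the calls, against 67.1% with normexp background correction and 54.6% with a trended and robust fit.

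**Figure D1:**
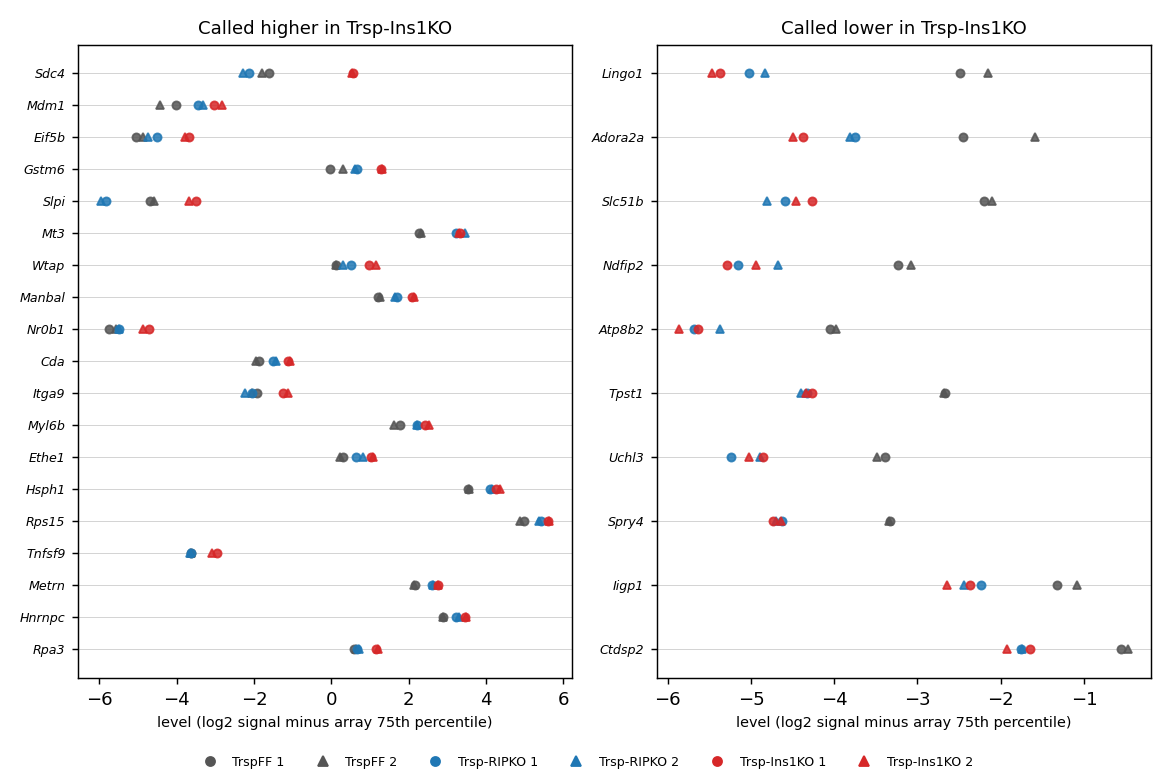
Levels (log2 signal minus the 75th percentile of the array), 1 point per array, of rises (left) and falls (right) that the text names from the largest changes and that had signal above background on both arrays of the lower group. The Trsp-Ins1KO points lie clear of the TrspFF points in each row, and in most rows of the right panel the Trsp-RIPKO points lie beside those of Trsp-Ins1KO.

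The largest rises came from genes whose probes neither TrspFF array measured well above background. Tmem154, Ttll2 and Foxl1 passed the filter only through Trsp-Ins1KO, the group where they were high. Their p-values are therefore no separate support for the rise. The transmembrane protein gene Tmem154 had levels of -8.54 and -8.64 in TrspFF, -8.65 and -8.90 in Trsp-RIPKO and -4.57 and -4.62 in Trsp-Ins1KO. It was present on both Trsp-Ins1KO arrays and near the floor on the others. Its increase was at least 3.28-fold, taking the faintest signal called well above background as the TrspFF level (adjusted p = 0.0117 for the fitted difference, limma). Ttll2, of the tubulin ligase-like family, had -7.71 and -7.42 in TrspFF against -3.67 and -3.86, at least 5.81-fold higher (adjusted p = 0.012). The forkhead factor gene Foxl1 had -7.24 and -7.50 against -4.40 and -3.80, at least 4.63-fold higher (adjusted p = 0.0422). Ciita, the transactivator of class II histocompatibility genes, was at least 1.53-fold higher, and 1 of the 2 Trsp-Ins1KO arrays measured it above background.

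Among genes measured in both groups, Sdc4, a cell-surface heparan sulfate proteoglycan, rose most. Its levels were -1.60 and -1.80 in TrspFF, -2.14 and -2.28 in Trsp-RIPKO and 0.56 and 0.53 in Trsp-Ins1KO (difference 2.24, SE 0.11, adjusted p = 0.0123). Both Trsp-Ins1KO arrays lay clear above the other 4. Slpi, a secreted protease inhibitor, had -4.70 and -4.60 in TrspFF, -5.83 and -5.97 in Trsp-RIPKO and -3.49 and -3.67 in Trsp-Ins1KO (difference 1.07, SE 0.11, adjusted p = 0.0309). Here TrspFF lay between the knockouts. Nr0b1, a nuclear receptor of the hypothalamic, pituitary and adrenal axis, had -5.76 and -5.56 in TrspFF against -4.72 and -4.86 (difference 0.88, SE 0.109, adjusted p = 0.0402).

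Other rises were mixed in function. Wtap, part of the complex that methylates adenosine in RNA, rose by 0.95, though its second probe gave 0.15. The translation initiation factor gene Eif5b rose by 1.22 and Mdm1, a microtubule-binding protein of centrioles, by 1.29. The integrin subunit gene Itga9 rose by 0.79, and Cda, cytidine deaminase, by 0.82. Smaller rises were Tnfsf9, the ligand of the receptor 4-1BB, at 0.62, Metrn, a secreted factor that acts on glia and neurites, at 0.60, and Rpa3, a subunit of replication protein A, at 0.57. Ethe1, the mitochondrial enzyme that clears sulfide, had levels of 0.30 and 0.23 in TrspFF, 0.63 and 0.81 in Trsp-RIPKO and 1.02 and 1.07 in Trsp-Ins1KO (difference 0.78, SE 0.0997, adjusted p = 0.0415). The order of the 3 genotypes was the same for Manbal, Metrn and Myl6b, with Trsp-RIPKO between TrspFF and Trsp-Ins1KO. Manbal and Hnrnpc each had a second probe with a difference of the opposite sign (-0.61 and -0.10), and of 26 called genes with several kept probes 19 had all probes on one side.

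The largest fall among genes with a usual symbol was Lingo1. Lingo1, a membrane protein that restrains axon growth and myelination, had levels of -2.49 and -2.15 in TrspFF, -5.02 and -4.83 in Trsp-RIPKO and -5.37 and -5.47 in Trsp-Ins1KO (difference -3.10, SE 0.149, adjusted p = 0.0123). P-selectin, Selp, an adhesion receptor of activated endothelium and platelets, had -3.56 and -3.53 in TrspFF against -5.84 and -5.77, with 1 of the 2 Trsp-Ins1KO arrays above background (difference -2.26, SE 0.0802, adjusted p = 0.012). In both genes the knockouts lay together, well below TrspFF. Spry4, an inhibitor of growth factor signalling, had -3.33 and -3.34 in TrspFF against -4.73 and -4.64 (difference -1.35, SE 0.0841, adjusted p = 0.0154). Tpst1, which sulfates tyrosines of secreted proteins, had -2.67 and -2.68 against -4.27 and -4.34 (difference -1.63, adjusted p = 0.0123).

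Among the other large falls, the bile acid transporter subunit gene Slc51b fell by 2.22, the phospholipid flippase gene Atp8b2 by 1.74, the ubiquitin ligase adaptor Ndfip2 by 1.96 and the deubiquitinating enzyme Uchl3 by 1.50. Ctdsp2, a phosphatase, fell by 1.28 on its brightest probe and was at -0.10 and -0.04 on the others. Chat, the acetylcholine-synthesising enzyme that marks cholinergic neurons, was chosen after its values were seen: its levels were -1.05 and -0.75 in TrspFF, -1.70 and -1.72 in Trsp-RIPKO and -2.04 and -2.15 in Trsp-Ins1KO (difference -1.19, SE 0.128, adjusted p = 0.0329).

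For 45 of the 361 falls neither Trsp-Ins1KO array had signal well above background. Serpinb1c, a serine protease inhibitor, was at least 2.85-fold lower, the testis protease gene Adam24 at least 2.56-fold, the cilium transport gene Wdr19 at least 2.06-fold and Smg8, of nonsense-mediated decay, at least 2.05-fold. These genes passed the filter only through TrspFF, the group where they were high. The fall of Dusp5, a nuclear phosphatase of ERK kinases, stood against the other knockout's levels. They were -5.91 and -5.59 in TrspFF, -5.42 and -5.74 in Trsp-RIPKO and -7.00 and -7.16 in Trsp-Ins1KO, at least 1.47-fold lower than TrspFF (adjusted p = 0.0422), while its difference from Trsp-RIPKO (-1.50) had an adjusted p of 0.263 in the fit of all 6 arrays and of 0.048 with the 4 knockout arrays fitted alone.

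The knockouts share a slide, so their direct comparison does not mix genotype with slide. In the fit of all 6 arrays 4 of 22862 genes (0.0175%) differed between them, all higher in Trsp-Ins1KO: Tmem154 (4.19, adjusted p = 0.00933), Ttll2 (4.08, adjusted p = 0.0194), Sdc4 (2.75, adjusted p = 0.0194) and Slpi (2.32, adjusted p = 0.0323). Each of the 4 was also among the rises over TrspFF, which rest on the same Trsp-Ins1KO arrays, so this is no separate support. Tmem154 and Ttll2 passed the filter only through Trsp-Ins1KO. The count of 4 became 0 with a replicate block, and 1 with normexp, with no filter or with a trended and robust fit. With the 4 knockout arrays fitted alone, limma called 318 genes (1.39%), 156 higher and 162 lower in Trsp-Ins1KO. Of these, 11 were also called higher and 7 also called lower than TrspFF, as were 0.241% and 1.58% of all tested genes. Both comparisons use the same Trsp-Ins1KO arrays, so these overlaps are no result about the genes. Among the higher ones were genes of skeletal muscle contraction, chosen after their values were seen: the troponin genes Tnnt3 (3.22, adjusted p = 0.0292) and Tnni2 (2.93, adjusted p = 0.0114), the myosin-binding protein gene Mybpc2 (2.24, adjusted p = 0.0167) and the myosin gene Myh8 (1.97, adjusted p = 0.0246). Tnni2 had TrspFF levels of -1.04 and -3.68, with -0.48 and -0.60 in Trsp-Ins1KO and -3.48 and -3.45 in Trsp-RIPKO. Members of the gene lists called in this fit were Gpx3 (1.25), Gal (1.08), Hmx2 (1.05) and Sytl4 (1.41) on the higher side, and Cort (-1.87), Tie1, Slco1a4, Tek, Kcnj8, Gbp3 and Xaf1 on the lower. The lower class II histocompatibility gene H2-DMb1, chosen after its values were seen, had TrspFF levels of -5.76 and -2.47, with -6.65 and -6.58 in Trsp-Ins1KO and -2.36 and -2.24 in Trsp-RIPKO, so 1 TrspFF array lay with each knockout.

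Selenoprotein transcripts were slightly higher, and 0 passed the test (8 nominal). Of 24 listed genes 23 were tested (Dio3 was below the filter), 19 had a positive difference (82.6%, against 53.1% of all tested genes) and the median was 0.17, against 0.02 over all genes. Over the 15082 tested genes with a usual symbol, 57.2% were positive and the median was 0.05. The lists below can be read against these values too. In 15 both Trsp-Ins1KO arrays lay above both TrspFF arrays and in 2 below, against 31.7% above and 26.4% below over all tested genes. Among the 15082 genes with a usual symbol this held for 5286 above and 3422 below. The median was 0.15 from Trsp-Ins1KO replicate 1 alone and 0.19 from replicate 2 alone. In Trsp-RIPKO, against the same controls, it was 0.08.

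Among the peroxidases, Gpx4, which reduces lipid peroxides, had levels of 4.92 and 4.83 in TrspFF and 5.08 and 5.11 in Trsp-Ins1KO (difference 0.22, adjusted p = 0.188). Gpx1, the cytosolic glutathione peroxidase, had a difference of 0.23 and Gpx2 of 0.30. The secreted peroxidase Gpx3 had 0.85 and -0.17 in TrspFF, 0.10 and 0.12 in Trsp-RIPKO and 1.30 and 1.44 in Trsp-Ins1KO (difference 1.03, SE 0.339, adjusted p = 0.153). Its spread lay mostly within TrspFF, where replicate 1 was nearer Trsp-Ins1KO and replicate 2 nearer Trsp-RIPKO. Of the thioredoxin reductases, which keep thioredoxin reduced, Txnrd1 had 0.36, Txnrd2 0.13 and Txnrd3 -0.23, none past the threshold.

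Of the list, Selenok had the smallest p. Selenok, which acts in protein palmitoylation at the endoplasmic reticulum, had levels of 3.74 and 3.77 in TrspFF, 3.90 and 3.99 in Trsp-RIPKO and 4.16 and 4.16 in Trsp-Ins1KO (difference 0.40, SE 0.0805, adjusted p = 0.0836). Selenow, a small cytosolic selenoprotein, had 5.05 and 5.08 in TrspFF and 5.42 and 5.65 in Trsp-Ins1KO (difference 0.47, adjusted p = 0.129), and Selenoh, which binds DNA in the nucleus, 0.36. The groups did not overlap in these 3 genes. Selenop, which carries selenium to the brain, had 4.83 and 4.53 in TrspFF and 4.60 and 4.70 in Trsp-Ins1KO, so the groups overlapped (difference -0.03, adjusted p = 0.901). Dio2, the deiodinase that activates thyroid hormone, had 0.86 and 1.09 in TrspFF against 0.61 and 0.81 (difference -0.27, adjusted p = 0.342).

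**Figure D2:**
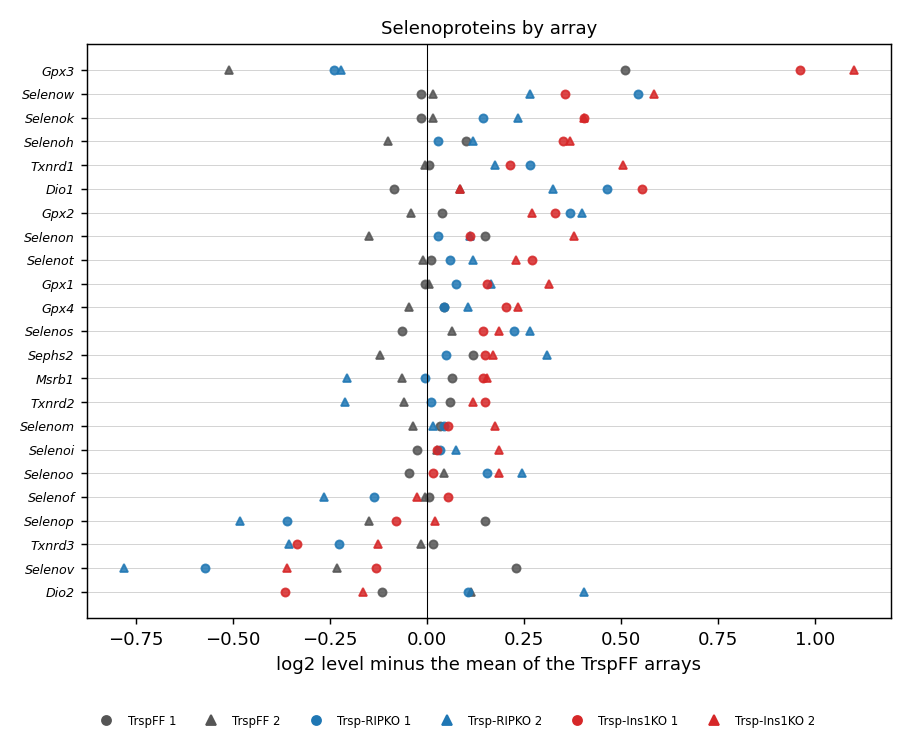
Log2 level minus the mean of the TrspFF arrays for each tested selenoprotein gene, 1 point per array, in order of the difference between Trsp-Ins1KO and TrspFF. Most Trsp-Ins1KO points lie above 0 by less than 0.5, and Gpx3 stands apart with a wide spread of its TrspFF points.

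Of the genes that make selenocysteine and insert it, 12 of 12 were tested, 0 rose and 1 fell. Secisbp2l, a relative of the protein that binds the selenocysteine insertion element of messenger RNA, had levels of -1.29 and -1.24 in TrspFF, -2.20 and -2.62 in Trsp-RIPKO and -2.44 and -2.36 in Trsp-Ins1KO (difference -1.14, SE 0.158, adjusted p = 0.0496). Both knockouts lay below TrspFF. Secisbp2, the binding protein itself, had a difference of -0.29. Eefsec, the elongation factor for selenocysteine, had -0.70 and -0.71 against -0.33 and -0.21 (difference 0.43, adjusted p = 0.0795), and Pstk, the kinase of the transfer RNA's serine, 0.34.

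Other antioxidant genes were mostly higher, with 1 rise and 0 falls among 27. Mt3, the brain metallothionein that binds zinc and copper, had levels of 2.28 and 2.33 in TrspFF, 3.22 and 3.46 in Trsp-RIPKO and 3.33 and 3.31 in Trsp-Ins1KO (difference 1.01, SE 0.111, adjusted p = 0.0334). The knockouts were about equally high. Of the 27, 21 were positive and the median was 0.26. In 17 the groups did not overlap in the higher direction and in 3 in the lower, against 31.7% and 26.4% over all tested genes. With quantile normalization the median was 0.15.

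Superoxide dismutase Sod1 had 5.53 and 5.26 in TrspFF against 5.91 and 5.87 (difference 0.50, adjusted p = 0.0978). The metallothioneins Mt1 and Mt2 both had a difference of 0.39, Srxn1, which repairs peroxiredoxins, 0.43, and the mitochondrial peroxiredoxins Prdx3 and Prdx5 0.35 and 0.38. Catalase, Cat, which breaks down hydrogen peroxide in peroxisomes, went the other way, with 2.05 and 2.24 in TrspFF against 1.55 and 1.61 (difference -0.57, SE 0.123, adjusted p = 0.091).

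Targets and regulators of NRF2, the transcription factor that induces detoxifying genes, did not shift as a list (28 tested, 17 positive, median 0.07, turning to -0.03 without TrspFF replicate 2). The glutathione transferase gene Gstm6 rose, with levels of -0.04 and 0.31 in TrspFF, 0.67 and 0.62 in Trsp-RIPKO and 1.28 and 1.30 in Trsp-Ins1KO (difference 1.16, SE 0.134, adjusted p = 0.0362), and all 3 of its probes gave 0.85 or more. Probes of the Gstm family may share signal, since its members are alike in sequence. Keap1, which targets NRF2 for degradation, fell, from 1.97 and 1.99 to 1.41 and 1.37 (difference -0.59, SE 0.0781, adjusted p = 0.0447). The subunits of the enzyme that starts glutathione synthesis, Gclm and Gclc, had -0.50 (adjusted p = 0.0745) and -0.41 (adjusted p = 0.102). The NRF2 target genes Nqo1 and Hmox1 had 0.39 and 0.30, and Nfe2l2, the gene of NRF2 itself, -0.23.

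Heat shock chaperones, which refold damaged proteins, were higher as a list, with 1 rise. Of 26 listed genes 24 were tested, 22 were positive (91.7%) and the median was 0.31, with 0.29 from replicate 1 alone and 0.35 from replicate 2 alone. In Trsp-RIPKO the median was 0.03 against the same controls. Hsph1, a large chaperone that works with Hsp70 proteins, had levels of 3.55 and 3.56 in TrspFF, 4.10 and 4.16 in Trsp-RIPKO and 4.26 and 4.36 in Trsp-Ins1KO (difference 0.76, SE 0.0847, adjusted p = 0.0348), and its second probe gave 0.65.

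Hspe1, the mitochondrial chaperonin that pairs with Hsp60, had 2.90 and 2.83 in TrspFF, 2.70 and 2.63 in Trsp-RIPKO and 3.67 and 4.12 in Trsp-Ins1KO (difference 1.03, SE 0.165, adjusted p = 0.0621). Both Trsp-Ins1KO arrays lay above the other 4. Stip1, a co-chaperone of Hsp70 and Hsp90, had 0.61 (adjusted p = 0.0665), Dnajb1 0.67 and the stress-inducible Hspa1a 1.25 (adjusted p = 0.179).

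Heat shock genes are switched on by HSF1, which binds repeats of GAA in alternating orientation. The promoters of Hsph1 and Hspe1, the members with the smallest p, are shown for the letters TTCNNGAA and GAANNTTC, which read the same on both strands. They come from RefSeq on GRCm38.p6 and cover 250 bases before the annotated start, 5′ to 3′ on the strand of the gene, with matches in capitals (overlapping matches run together). The windows are chr5:149636337-149636586 on the minus strand for Hsph1, the first of its 2 annotated starts, and chr1:55087898-55088147 on the plus strand for Hspe1.
Hsph1: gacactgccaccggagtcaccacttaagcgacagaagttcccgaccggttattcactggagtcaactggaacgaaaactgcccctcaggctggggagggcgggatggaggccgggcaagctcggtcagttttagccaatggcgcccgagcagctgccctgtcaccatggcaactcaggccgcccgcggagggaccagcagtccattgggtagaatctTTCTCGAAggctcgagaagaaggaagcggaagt
Hspe1: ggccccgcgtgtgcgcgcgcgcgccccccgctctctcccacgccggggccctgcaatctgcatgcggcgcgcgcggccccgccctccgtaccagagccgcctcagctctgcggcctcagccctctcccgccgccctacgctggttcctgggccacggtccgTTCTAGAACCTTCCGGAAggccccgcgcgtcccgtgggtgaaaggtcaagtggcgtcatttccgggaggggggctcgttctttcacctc
Hsph1 held 1 match, beginning 33 bases before the start, and Hspe1 3 overlapping matches that begin between 89 and 79 bases before it. Of 20 heat shock genes with a window, 8 held a match in at least 1 window. Counted by window and not by gene, 12.8% of all 32851 windows held one. Some of the heat shock genes had 2 or 3 windows, so these shares cannot be set against each other. A match of letters is a description and no measure of binding.

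**Figure D3:**
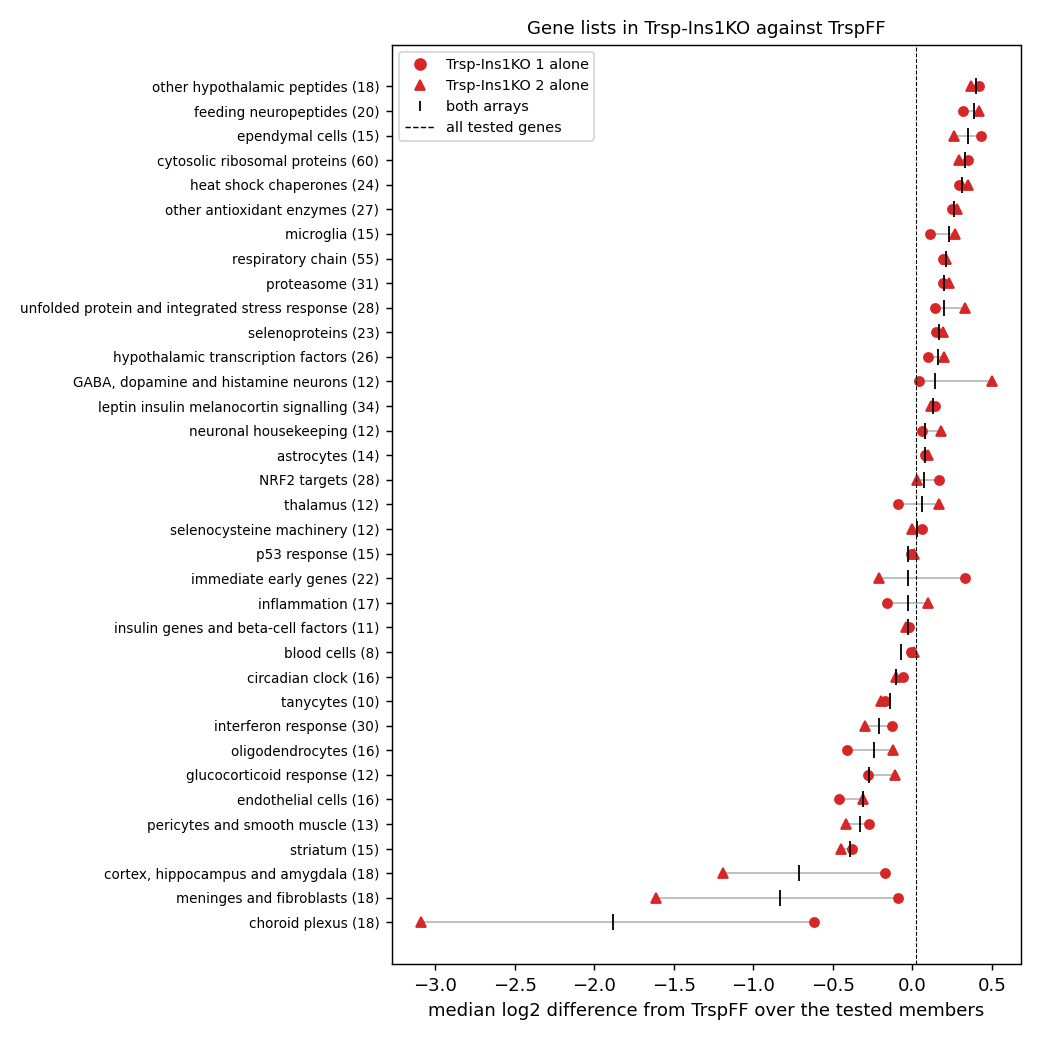
Median log2 difference from TrspFF over the tested members of each gene list (number in parentheses), with both Trsp-Ins1KO arrays (line) and with each array alone (circle, replicate 1; triangle, replicate 2); the dashed line is the median of all tested genes, 0.02. The arrays lie close together for ribosomal, respiratory chain, heat shock and selenoprotein genes and far apart for choroid plexus, meninges and cortex.

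Genes of protein synthesis, respiration and protein breakdown were slightly higher on both Trsp-Ins1KO arrays. Cytosolic ribosomal protein genes had a median of 0.33 (0.35 from replicate 1 alone and 0.29 from replicate 2 alone), with 55 of 60 positive and 1 rise: Rps15 had levels of 4.99 and 4.89 in TrspFF, 5.43 and 5.37 in Trsp-RIPKO and 5.61 and 5.64 in Trsp-Ins1KO (difference 0.69, SE 0.0859, adjusted p = 0.0406). Rps21 stood against its list, with 4.32 and 4.07 in TrspFF against 3.47 and 3.27 (difference -0.83, adjusted p = 0.0605). Nuclear-encoded subunits of the respiratory chain had a median of 0.21, with 48 of 55 positive, 0 called and 21 nominal; Ndufa3, of complex I, had 0.68 (adjusted p = 0.0579). Proteasome subunits had a median of 0.20, with 27 of 31 positive, 0 called and 11 nominal. The same medians in Trsp-RIPKO were -0.01, -0.08 and 0.02. With quantile normalization the medians in Trsp-Ins1KO were 0.16, 0.04 and 0.09, so the size of these shifts depends on how the arrays were scaled.

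Genes that respond to unfolded protein and to the integrated stress kinases had a median of 0.20 over 28 tested genes, 20 of them positive, 0 called and 11 nominal, with 0.14 from replicate 1 alone and 0.33 from replicate 2 alone. Chaperones and disulfide enzymes of the endoplasmic reticulum were among the higher members. Hspa5, the Hsp70 protein of that compartment, had a difference of 0.35, Pdia4 0.81 and Sdf2l1 0.89 (adjusted p = 0.106). Trib3, a target of the stress factors ATF4 and CHOP, had -3.16 and -3.32 in TrspFF against -3.75 and -3.92 (difference -0.60, adjusted p = 0.0705). Ddit3, the gene of CHOP, had 0.37.

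Neuropeptides of feeding and energy balance were higher as a list, and 0 passed the test. Of the tested members 5 were nominal, no more than the share over all genes (5937 of 22862). Of 22 listed genes 20 were tested, 17 were positive (85.0%), and the median was 0.39, with 0.32 and 0.42 from the arrays taken alone and 0.26 without TrspFF replicate 2. In 10 genes the groups did not overlap, all in the higher direction. Over all tested genes this held for 31.7% in the higher and 26.4% in the lower direction. The median in Trsp-RIPKO was 0.14.

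In the arcuate nucleus, Pomc gives rise to the satiety peptide alpha-MSH and Agrp to its antagonist. Pomc had levels of 0.85 and 0.75 in TrspFF, 1.57 and 1.62 in Trsp-RIPKO and 1.97 and 1.39 in Trsp-Ins1KO (difference 0.88, SE 0.203, adjusted p = 0.0963). Agrp had -1.29 and -1.66 in TrspFF, -1.06 and -0.80 in Trsp-RIPKO and -0.29 and -0.85 in Trsp-Ins1KO (difference 0.91, SE 0.242, adjusted p = 0.116). For these opposing peptides both Trsp-Ins1KO arrays lay above both TrspFF arrays. Npy, made by the same neurons as Agrp, had -0.18 and 0.57 in TrspFF, 1.01 and 1.26 in Trsp-RIPKO and 0.32 and -0.44 in Trsp-Ins1KO (difference -0.25, adjusted p = 0.682), and its groups overlapped. Cartpt, made with Pomc, had 1.03 with a wide spread (adjusted p = 0.224).

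Adcyap1, the gene of PACAP in the ventromedial nucleus, had levels of 0.42 and 0.24 in TrspFF, 0.96 and 1.17 in Trsp-RIPKO and 1.01 and 1.27 in Trsp-Ins1KO (difference 0.81, SE 0.143, adjusted p = 0.0703), the smallest p of the list. Of the lateral hypothalamic peptides, Pmch, the gene of melanin-concentrating hormone, had 4.48 and 4.38 in TrspFF, 3.77 and 3.34 in Trsp-RIPKO and 4.78 and 4.83 in Trsp-Ins1KO (difference from TrspFF 0.38, adjusted p = 0.225; from Trsp-RIPKO 1.25, adjusted p = 0.263 in the fit of all 6 arrays). Hcrt, the gene of orexin, had 4.12 and 4.72 in TrspFF against 5.16 and 4.89 (difference 0.61, adjusted p = 0.227). Gal, the gene of galanin, had 0.77 (adjusted p = 0.177).

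Other hypothalamic peptides had a median of 0.40 over 18 tested genes, 13 of them positive, 0 called and 6 nominal. Oxt, oxytocin, had levels of 5.03 and 4.65 in TrspFF, 5.24 and 4.81 in Trsp-RIPKO and 5.84 and 5.73 in Trsp-Ins1KO (difference 0.94, SE 0.202, adjusted p = 0.0892). Avp, vasopressin, had 3.39 and 2.68 in TrspFF, 3.60 and 2.82 in Trsp-RIPKO and 4.25 and 4.36 in Trsp-Ins1KO (difference 1.27, SE 0.348, adjusted p = 0.119). For both hormones of the paraventricular and supraoptic nuclei the Trsp-Ins1KO arrays lay above the other 4, and replicate 1 lay above replicate 2 in each of the other groups. Calca, the gene of calcitonin and CGRP, had 0.74 (adjusted p = 0.0718), and the reproductive peptides Kiss1 and Tac2 0.53 and 0.51. The cortical and hypothalamic peptide Cort had -0.88.

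**Figure D4:**
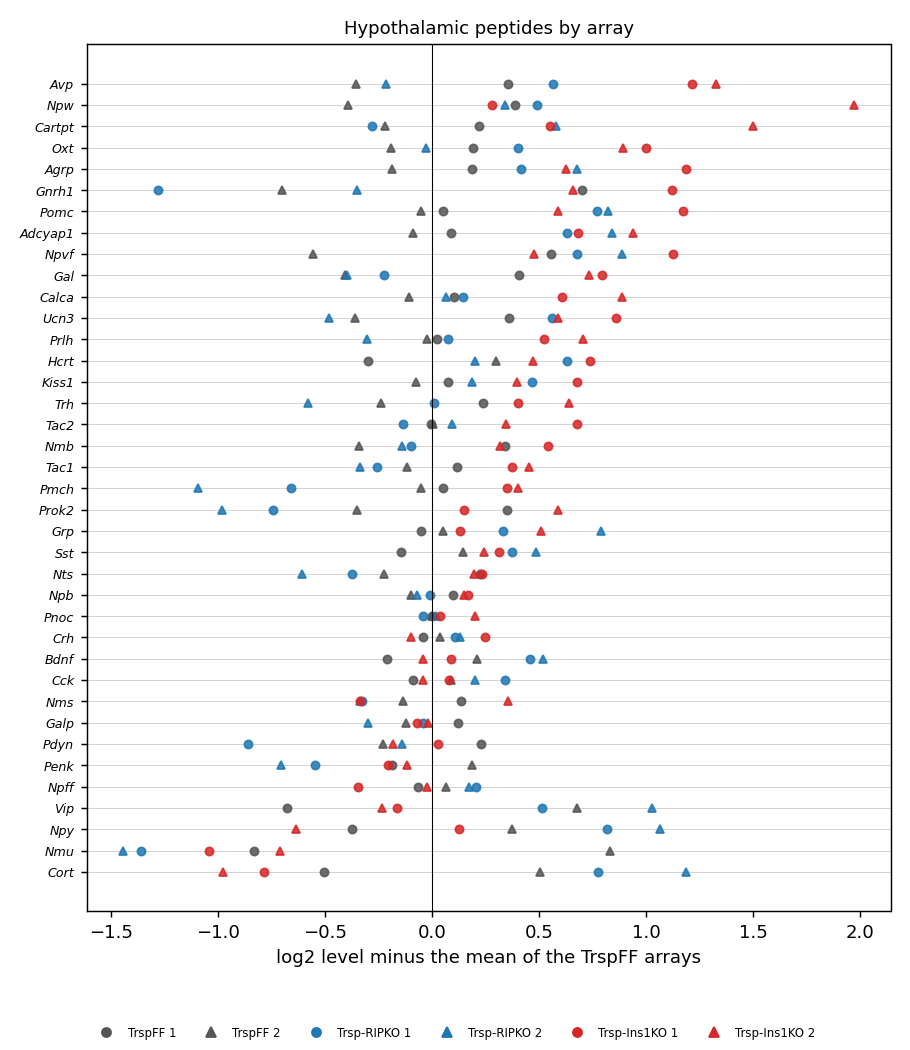
Log2 level minus the mean of the TrspFF arrays for each tested peptide gene of both lists, 1 point per array, in order of the difference between Trsp-Ins1KO and TrspFF. Avp, Oxt, Pomc, Agrp and Adcyap1 have both Trsp-Ins1KO points above both TrspFF points, and Npy and Cort lie near the bottom.

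Of 34 tested genes of leptin, insulin and melanocortin signalling 0 rose and 1 fell. Pik3ca, the catalytic subunit p110-alpha of phosphoinositide kinase downstream of the insulin receptor, had levels of -1.48 and -1.40 in TrspFF, -2.49 and -2.24 in Trsp-RIPKO and -2.51 and -2.31 in Trsp-Ins1KO (difference -0.97, SE 0.131, adjusted p = 0.0469). Both knockouts lay together below TrspFF. The list had a median of 0.13 with 24 positive.

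The receptors themselves showed no difference beyond the spread of the arrays. Lepr, the leptin receptor, had -0.01 and -0.46 in TrspFF, -0.75 and -0.98 in Trsp-RIPKO and -0.35 and -0.55 in Trsp-Ins1KO (difference -0.22, SE 0.191, adjusted p = 0.499), and Insr, the insulin receptor, had -1.97 and -1.65 in TrspFF against -1.67 and -1.64 (difference 0.15, SE 0.139, adjusted p = 0.515). The groups overlapped for both Lepr and Insr, and both differences change sign under some settings. Socs3, which leptin induces and which inhibits its receptor, had -2.16 and -2.22 in TrspFF against -1.95 and -1.75 (difference 0.34, adjusted p = 0.141). Irs1, a substrate of the insulin receptor, had 0.31 (adjusted p = 0.164). Pcsk2, a convertase that cuts peptide precursors such as POMC, had 3.32 and 3.27 in TrspFF, 3.75 and 3.81 in Trsp-RIPKO and 3.84 and 3.92 in Trsp-Ins1KO (difference 0.59, SE 0.0834, adjusted p = 0.0519). Pcsk1, the other convertase, had 0.55 (adjusted p = 0.122).

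Genes of insulin production were tested because the Cre driver rests on Ins1, and 0 of the 11 tested passed (5 nominal). Ins1 itself had levels of -3.40 and -4.37 in TrspFF, -4.41 and -3.84 in Trsp-RIPKO and -4.59 and -6.02 in Trsp-Ins1KO (difference -1.42, SE 0.588, adjusted p = 0.212). Its groups did not overlap, with replicate 2 of Trsp-Ins1KO the lowest. Ins2 had -1.94 and -2.41 in TrspFF, -2.44 and -2.32 in Trsp-RIPKO and -2.79 and -2.65 in Trsp-Ins1KO (difference -0.55, SE 0.178, adjusted p = 0.152). Ins1 and Ins2 are alike in sequence, so their probes may share signal. The beta-cell genes Pdx1, Slc2a2, Iapp, G6pc2, Slc30a8 and Ffar1 were below the filter. Of the factors shared with neurons, Sytl4, of granule release, had 0.78 (adjusted p = 0.112).

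Interferon response genes had a median of -0.21 over 30 tested, 6 of them positive, and 1 fell. Iigp1, an interferon-induced GTPase, had levels of -1.32 and -1.08 in TrspFF, -2.24 and -2.44 in Trsp-RIPKO and -2.37 and -2.65 in Trsp-Ins1KO (difference -1.31, SE 0.154, adjusted p = 0.0366). Between the knockouts the list had a median difference of -0.70, with 0 of 30 called in the fit of all 6 arrays and 2 called lower in Trsp-Ins1KO with the knockout arrays alone: Gbp3, a guanylate-binding protein (-1.39, adjusted p = 0.0425), and Xaf1 (-0.95, adjusted p = 0.05). Usp18, which ends interferon signalling, had -4.71 and -3.52 in TrspFF, -3.50 and -2.53 in Trsp-RIPKO and -4.73 and -4.90 in Trsp-Ins1KO (difference from TrspFF -0.70, adjusted p = 0.415). TrspFF replicate 1 lay with Trsp-Ins1KO and replicate 2 with Trsp-RIPKO, and without TrspFF replicate 2 the list's median was -0.06. Inflammation genes were centred near 0 (median -0.03, changing sign with the arrays used; 0 of 17 called, 2 nominal), and Tnf, Il1b and Il6 were below the filter. Il1r1, the interleukin-1 receptor, had -2.48 and -2.47 in TrspFF against -3.14 and -3.55 (difference -0.87, adjusted p = 0.0753).

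Immediate early genes of neuronal activity split the Trsp-Ins1KO arrays. Their median was 0.33 from replicate 1 alone and -0.21 from replicate 2 alone (22 tested, 0 called, 5 nominal). Jund had the smallest p, with 3.36 and 3.21 in TrspFF against 3.88 and 4.03 (difference 0.67, adjusted p = 0.061), and Fos had 0.54 (adjusted p = 0.0935). Glucocorticoid-responsive genes had a median of -0.27 (12 tested, 3 positive, 0 called, 2 nominal), and of -0.11 without Trsp-Ins1KO replicate 1. Fkbp5, a chaperone of the receptor, had 0.63 and 0.45 in TrspFF against 0.07 and 0.16 (difference -0.42, adjusted p = 0.0979). Of the circadian clock genes 0 of 16 passed (3 nominal), with Per1 at -0.67 (adjusted p = 0.176), and of the p53 targets 0 of 15 (2 nominal).

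Transcription factors of hypothalamic nuclei had a median of 0.16 (26 tested, 17 positive, 0 called, 7 nominal), and of 0.05 with 13 positive without TrspFF replicate 2. Nkx2-1, which patterns the ventral hypothalamus, had -3.22 and -3.50 in TrspFF against -2.88 and -2.55 (difference 0.64, adjusted p = 0.118). Foxb1, of the mammillary region, had 0.49 (adjusted p = 0.0795), and Nr5a1, of the ventromedial nucleus, 0.47. The direction was not uniform: Sim1, of the paraventricular nucleus, had -1.06 and Lhx8, of basal forebrain cholinergic neurons, -1.34, neither past the threshold. Markers of GABA, dopamine and histamine neurons had a median of 0.14 (12 tested, 0 called, 3 nominal), 0.04 from replicate 1 alone and 0.50 from replicate 2 alone. The histamine enzyme Hdc had 0.67 (adjusted p = 0.0951), and Gad1, which makes GABA, -0.11.

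Of the tissues near the hypothalamus, choroid plexus, meninges and cortex had markers at lower levels in Trsp-Ins1KO, mainly on replicate 2, while the thalamus lay near 0. Choroid plexus, which hangs in the ventricles and secretes cerebrospinal fluid, had a median of -1.88 over 18 genes, 0 of them positive, 0 called and 6 nominal. Replicate 1 alone gave -0.62 and replicate 2 alone -3.09, and the mean level of the list was 0.38 and -0.20 in TrspFF, -0.27 and -0.03 in Trsp-RIPKO and -0.52 and -2.84 in Trsp-Ins1KO. Ttr, the thyroid hormone carrier of this epithelium, had 6.31 and 5.56 in TrspFF, 5.64 and 5.89 in Trsp-RIPKO and 5.39 and -0.95 in Trsp-Ins1KO. Kcne2, a potassium channel subunit, had 0.10 and -0.53 in TrspFF against -0.75 and -6.16. Steap1, the member with the smallest p, was lower on both Trsp-Ins1KO arrays, at -3.17 and -4.37 against -2.25 and -1.77 (difference -1.76, adjusted p = 0.105).

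Meningeal and fibroblast genes had a median of -0.83 (18 tested, 0 called, 2 nominal), with -0.09 from replicate 1 alone and -1.61 from replicate 2 alone. Cortical, hippocampal and amygdalar genes had -0.71 (18 tested, 0 called, 2 nominal), with -0.17 and -1.19; Neurod6, of cortical excitatory neurons, had -1.12 and -0.64 in TrspFF against -1.13 and -5.24. The mean level of the cortical list was -1.40 and -0.84 in TrspFF, -0.59 and -0.58 in Trsp-RIPKO and -1.26 and -2.60 in Trsp-Ins1KO, so replicate 1 of Trsp-Ins1KO lay within TrspFF. Thalamic genes had a median of 0.06 (12 tested, 8 positive, 0 called, 0 nominal), with -0.09 from replicate 1 alone and 0.17 from replicate 2 alone. Of 10 pituitary genes 2 passed the filter. Cga, the shared subunit of pituitary hormones, had -1.78 and -5.88 in TrspFF against -7.21 and -8.04, so TrspFF replicate 1 stood above the rest. The choroid plexus, meningeal and cortical lists thus moved with the Trsp-Ins1KO replicates. Their part in the results of the peptide, transcription factor and chaperone lists was not tested.

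**Figure D5:**
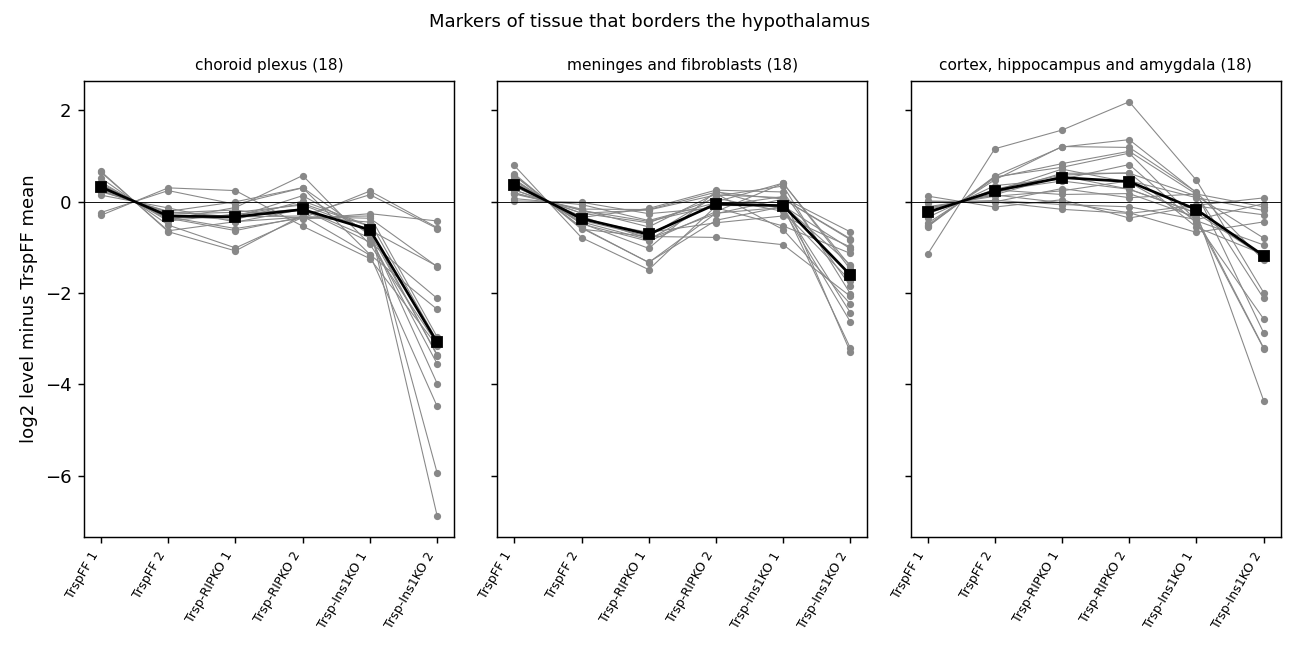
Log2 level minus the mean of the TrspFF arrays for each tested marker of choroid plexus, meninges and fibroblasts, and cortex, hippocampus and amygdala (grey), with the median of the list (black squares), for each of the 6 arrays. Trsp-Ins1KO replicate 2 lies below the other 5 arrays in all 3 panels, with medians of -3.09, -1.61 and -1.19.

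Striatal genes had lower medians on both Trsp-Ins1KO arrays, and 2 of 15 fell, against 1.58% of all tested genes. Of the 15, 9 were nominal. The groups did not overlap in 10 in the lower and in 3 in the higher direction, against 26.4% and 31.7% over all tested genes. Adora2a, the adenosine receptor of medium spiny neurons, had levels of -2.45 and -1.59 in TrspFF, -3.75 and -3.81 in Trsp-RIPKO and -4.38 and -4.49 in Trsp-Ins1KO (difference -2.41, SE 0.289, adjusted p = 0.0375). The orphan receptor gene Gpr6 had -1.90 and -1.94 in TrspFF against -2.48 and -2.52 (difference -0.58, SE 0.078, adjusted p = 0.0469). Drd1, a dopamine receptor, had -2.67 and -2.02 in TrspFF, -3.23 and -3.29 in Trsp-RIPKO and -3.57 and -3.53 in Trsp-Ins1KO (difference -1.20, adjusted p = 0.0751). The list's median was -0.38 from replicate 1 alone and -0.45 from replicate 2 alone, so it did not follow the choroid plexus genes, and -0.42 in Trsp-RIPKO. Pde1b and Syndig1l of the same list had positive differences of 0.30 and 0.51.

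Vessel and myelin genes had negative medians as well. Of 16 endothelial genes 1 fell, Selp, and 1 was positive; the median was -0.31, and -0.15 without TrspFF replicate 2. Esam, a junction protein, had -1.42 and -0.90 in TrspFF against -2.01 and -2.06 (difference -0.87, adjusted p = 0.0923). Against Trsp-RIPKO the list's median was -0.71, with 0 of 16 called in the fit of all 6 arrays and 3 called lower with the knockout arrays alone: Tie1, a receptor of vessel growth (-1.61, adjusted p = 0.0365), the transporter gene Slco1a4 (-1.26, adjusted p = 0.0246) and Tek, the angiopoietin receptor (-0.98, adjusted p = 0.0459). Pericyte and smooth muscle genes had a median of -0.33 (13 tested, 0 called, 6 nominal), with the smooth muscle actin gene Acta2 at -1.10 and -1.18 in TrspFF against -1.81 and -1.91 (difference -0.72, adjusted p = 0.0799). Oligodendrocyte genes had -0.24 (16 tested, 0 called, 5 nominal) and -0.07 without TrspFF replicate 2; Ermn, a myelin cytoskeletal protein, had 4.91 and 5.07 in TrspFF, 4.28 and 4.05 in Trsp-RIPKO and 4.15 and 3.79 in Trsp-Ins1KO (difference -1.02, adjusted p = 0.0624).

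Microglial genes had a median of 0.23 (15 tested, 14 positive, 0 called, 3 nominal), 0.11 from replicate 1 alone and 0.12 without TrspFF replicate 2. Fcrls and C1qc, both of resident microglia, had 0.35 and 0.25. Ependymal cilium genes had a median of 0.35 (15 tested, 13 positive, 0 called, 0 nominal), but 0.04 without TrspFF replicate 2. Between the knockouts the median was 0.69, with 0 called in either fit. The astrocyte list lay near 0 (median 0.08, -0.01 with quantile normalization), with Aldoc, an aldolase of astrocytes, at 0.46 (adjusted p = 0.0875). Of 10 tanycyte genes 0 passed (3 nominal); Crym, which binds thyroid hormone, had 0.95 and 1.37 in TrspFF against 0.34 and -1.87.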

How the data were processed

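Total RNA from the hypothalamus was labelled with Cy3 and hybridised to 1-colour Agilent mouse arrays, 1 sample per array. The deposited scanner files hold each spot's intensity, background-subtracted and detrended within the array by Agilent Feature Extraction 10.7.3.1 and annotated on mm9, per the file headers. The deposited value table holds log2 values centred on each probe's median over the 6 arrays; no source used here gives the authors' scaling. Its knockout columns match the scanner files only with the 2 knockout names exchanged (r of -0.20 and -0.22 under its own names), and TrspFF columns match under their own.

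From the processed intensity, log2 was taken and each array's 75th percentile over non-control probes subtracted. Spots with outlier flags were left out (118 probes), spots of a probe were averaged, and 28064 of 39429 probes were kept, those that both arrays of some genotype measured well above background. The brightest kept probe stood for a gene (22862 genes, 15082 with a usual gene symbol; the others are clone or predicted names of the array's design, and symbols can be old). limma 3.58.1 in R 4.3.3 was fitted over the 6 arrays with a mean for each genotype, eBayes and Benjamini-Hochberg adjustment over all genes, so Trsp-RIPKO adds to the estimate of the spread. With 2 arrays a group the precision is limited by their number (median SE 0.127 on the log2 scale). An "at least" fold sets the bright group's mean against the faintest signal called well above background, or the probe's own where higher. On simulated data with 200 of 22862 genes changed, 57 of 100 genes with a log2 effect of 1 and 96 of 100 with an effect of 2 were called, with 9 false calls. The simulated noise was independent between genes and arrays and held no slide or dissection difference. Among its unchanged genes 1057 were nominal in limma, against 5937 nominal genes in the data. The 9 false calls are therefore no error rate for the calls reported here.

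The genes of a list, the lists themselves and the comparison were chosen with earlier results of these data known. Named genes were the 30 largest rises and 30 largest falls among called genes with a usual symbol, called members of a list, up to 6 other members of each list (3 by smallest p and 3 by highest level), all selenoproteins, Ins1, Ins2, Ttr, Lepr and Insr, of which the text gives a part. Named outside this rule, after their values were seen, were Kcne2, Neurod6, Abhd17a, Retsat, Ccl21a, Rbbp9, Chat, Tnnt3, Tnni2, Mybpc2, Myh8, Gal, Hmx2, Cort, Slco1a4, Tek, Kcnj8, Gbp3, Xaf1, H2-DMb1, Secisbp2, Srxn1, Prdx3, Prdx5, Nqo1, Hmox1, Nfe2l2, Dnajb1, Hspa1a, Pdia4, Sdf2l1, Ddit3, Npy, Cartpt, Kiss1, Tac2, Socs3, Irs1, Usp18, Nkx2-1, Nr5a1, Sim1, Lhx8, Gad1 and Syndig1l. Alternatives covered background correction, scaling, the value table, filters, the choice of probe, the variance model, the arrays in the fit, a replicate block and each array left out. Promoter sequences are from RefSeq on GRCm38.p6 and were not joined to any coordinate of the array. Some results are not reported here.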

Additional observations from a re-analysis of the deposited data

How the results depend on the processing

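The counts of 55 rises and 361 falls moved with the processing. They were 192 and 392 with normexp background correction, 58 and 234 with median scaling (which put the median of all genes at 0.11 in place of 0.02), 99 and 415 with signal above background on all 6 arrays, 8 and 17 with no filter, 564 and 677 with a trended and robust fit, and 26 and 217 at a minimum of 2-fold. Quantile normalization gave 70 and 306, and the mean of the probes 53 and 363. The authors' deposited values gave 55 and 360, with their columns matched to the scanner files by value and so with the knockout names exchanged. They hold the same measurements, so a near-equal count was fixed in advance and is no separate support. Falls were 68.0% of the calls with no filter. With only the 4 arrays of both groups limma called 0 and 0 (4856 at an unadjusted p under 0.05, smallest adjusted p = 0.0714). With the replicate number as a block it called 0 and 0 (5746 unadjusted, smallest adjusted p = 0.0571); the labels do not say what a number marks, and the deviations of TrspFF replicate 1 and Trsp-Ins1KO replicate 1 from their group means correlated at 0.09. Leaving out 1 array at a time gave 0 to 183 rises and 0 to 328 falls; the single call without Trsp-Ins1KO replicate 2 was Rbbp9 (-9.07, adjusted p = 0.00441). The slide as a block was not run, since no slide held both groups.

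The count of 4 genes between the knockouts was 318 with those 4 arrays alone and 0 with the replicate block, and ranged from 0 to 318 as arrays were left out. It was 1 with normexp, no filter and a trended and robust fit, and 2 with signal above background on all 6 arrays. Differences near 0 changed sign with 1 array left out: Lepr ranged from -0.45 to 0.01, Insr from -0.01 to 0.31, Selenop from -0.18 to 0.12, Tek from -0.70 to 0.06 and Npy from -0.63 to 0.13. Selenop was also at 0.06 with median scaling and with normexp, and Rbbp9 at 0.34, from another probe, where signal had to be above background on all 6 arrays. The cause was not tested.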
